A study of Mus musculus with 12 samples.

Results

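The 8 genes described here encode subunits of potassium channels that are opened by intracellular calcium or sodium. They are *Kcnma1*, *Kcnmb2* and *Kcnmb4* of the BK channel, *Kcnn1*, *Kcnn2* and *Kcnn3* of the SK family, and *Kcnt1* and *Kcnt2*, which encode Slack and Slick. They were chosen by name and found by their Ensembl IDs among 37991 counted genes, and all 8 passed the filter on low counts. Poly(A) RNA-seq had been performed on hippocampi of 12 C57BL/6N mice, aged 6 to 7 months per the labels although the study's methods give a younger range, of which 6 are labelled Wildtype and 6 Gadd45a-KO (genotype Gadd45a-/-). The mice of both labels were siblings from crosses of heterozygous Gadd45a-deficient parents, and all of them were killed 1 h after the passive avoidance (PA) test, a fear memory task in which crossing from a lit into a dark chamber is punished by an electric shock. No untrained mouse was among them. In the knockout line, per the study's methods, the first exons of *Gadd45a* are replaced by a neomycin cassette in every cell of the animal, so that the hippocampus was not targeted on its own.

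BK channels open when the membrane is depolarized and calcium is high at the same time, and they shorten action potentials and contribute to the fast afterhyperpolarization. SK channels are not voltage gated. They sense calcium through bound calmodulin, carry slower afterhyperpolarizing currents and limit postsynaptic depolarization in dendritic spines, and for this reason they have been studied in synaptic plasticity and learning. Slack and Slick are opened by sodium and produce the slow outward current that follows trains of action potentials. All of these channels link the ions that enter during activity to repolarization of the membrane.

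The pore-forming subunits share a selectivity filter, the stretch of protein that lets potassium pass. Its coding bases are shown for some of these genes, to set examples of the BK, SK and sodium-activated branches side by side. The sequences are the coding strand of transcripts in an annotation of NCBIM37 (GENCODE M1), are identical to the NCBIM37 genome, and each lies within 1 coding exon. The capitals mark 3 codons, namely GGN, then TAC, TAT, TTC or TTT, then GGN. They were found in frame ahead of GAC or GAT on the coding strand, a pattern that 0.928% of 22737 protein-coding genes hold.
Kcnma1, chr14:24347623-24347652, minus strand: tctacagtgGGTTATGGGgacgtttatgca
Kcnn1, chr8:73374544-73374573, minus strand: ttgtccattGGCTATGGAgacatggtgccg
Kcnt1, chr2:25749884-25749913, plus strand: tcaactgtgGGCTTCGGTgatgtgacgccc
Kcnt2, chr1:142321852-142321881, plus strand: tctactgtgGGCTTTGGGgatgtcactcct

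The windows of *Kcnt1* and *Kcnt2* had 24 of 30 bases in common. *Kcnma1* had 21 of 30 in common with *Kcnt2*, 17 with *Kcnt1* and 15 with *Kcnn1*. The middle codon began with TA in *Kcnma1* and *Kcnn1* and with TT in both sodium-activated genes. *Kcnma1* also carries the calcium bowl, an acidic stretch of the intracellular domain that takes part in calcium sensing. Its core was found in frame as 5 successive codons GAC or GAT, a pattern held by 0.567% of the same genes, and the capitals mark those codons.
Kcnma1, chr14:24150140-24150169, minus strand: ttggaccaaGACGATGACGATGACcctgac

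Before the channel genes were compared, the libraries were examined. Between 44594261 and 55540601 reads per library fell on genes. *Gadd45a* itself had 2.19 to 3.43 CPM (read counts scaled to library size) in the libraries labelled Wildtype and 20.5 to 23.1 CPM in those labelled Gadd45a-KO, so that its reads went against the labels and libraries are named by label throughout. Counts cover the whole gene and do not separate the replaced exons from the remaining one. All 10 markers of hippocampal neurons passed the filter on low counts, and 8 of them had log2 fold changes below 0 (median -0.11). Of these markers 1 (*Zbtb20*, log2 fold change -0.43) was lower at 1% FDR, but not with an offset for transcript length (-0.15, edgeR adjusted p = 0.166). The summed level of the 10 markers was 1599 to 1708 CPM in the libraries labelled Wildtype and 1304 to 1660 CPM in those labelled Gadd45a-KO. Gadd45a-KO replicates 2 and 3 stood apart, with summed levels of 10 thalamic markers of 370 and 555 CPM against 96.0 to 141 CPM in the other 10 libraries. All 10 of these thalamic genes had log2 fold changes above 0, with a median of 1.17, although none passed 1% FDR. Replicate 3 was also the highest for 8 oligodendrocyte markers, at 7543 CPM, where the libraries labelled Wildtype had 2398 to 3803 CPM. All 8 of these had log2 fold changes above 0 (median 0.45), as had all 8 markers of mural and smooth muscle cells (median 0.19). All 8 markers of microglia and all 8 of endothelial cells were above 0 too (medians 0.07 and 0.11). Of 8 interneuron markers, 7 were below 0 (median -0.05). No marker in these lists passed 1% FDR. In bulk tissue, fewer cells of a type and less RNA per cell cannot be told apart.

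Of the 8 channel genes, only *Kcnma1* fell in the libraries labelled Gadd45a-KO, to 56.4% of its level in those labelled Wildtype. The other 7 did not pass a false discovery rate (FDR) of 1%, for which edgeR's quasi-likelihood p-values were adjusted by Benjamini-Hochberg over all 16399 genes tested. In that test 2.65% of all genes changed, with 2.62% lower and 0.0244% higher. Among the 8 genes 4 log2 fold changes were below 0 and 4 above it, with a median of -0.05 against 0.00 for all genes tested. The genes with log2 fold changes below 0 were *Kcnma1*, *Kcnn3*, *Kcnt2* and *Kcnn2*. The plot of CPM by label shows each library.

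**Figure D1:**
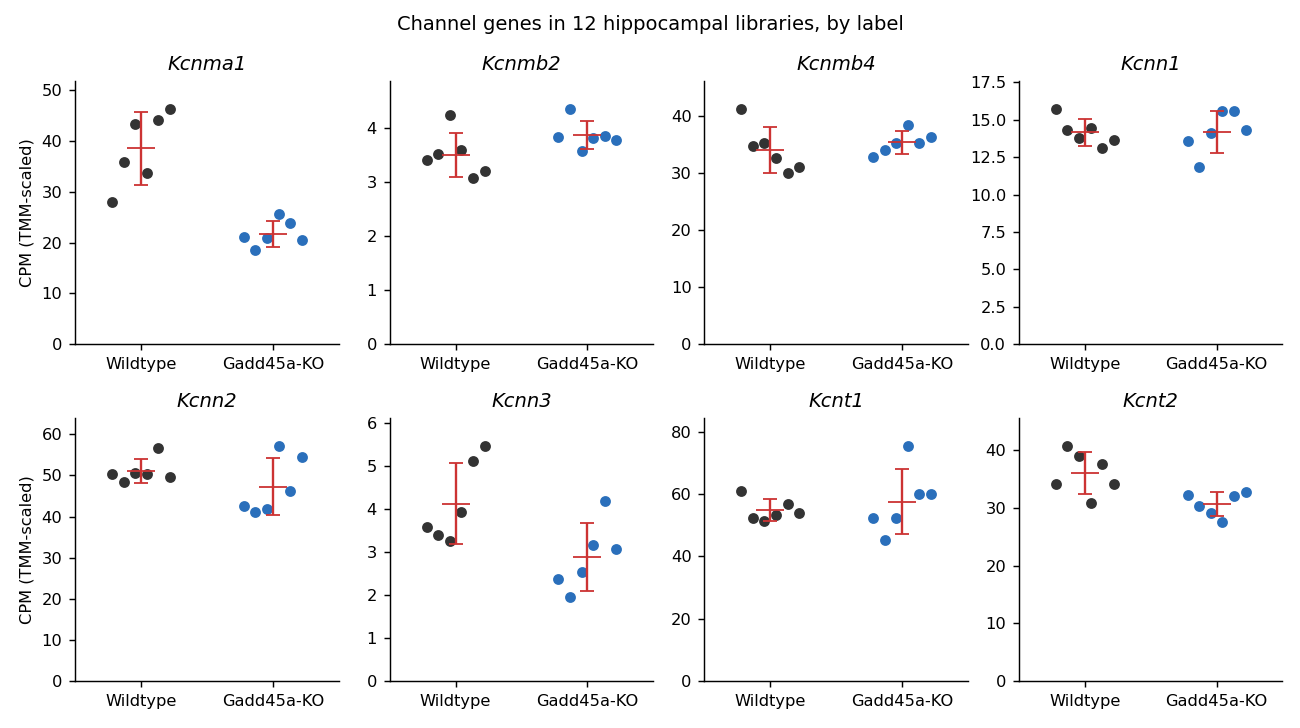
TMM-scaled CPM (linear axis from 0) of the 8 channel genes in 6 libraries labelled Wildtype (dark points) and 6 labelled Gadd45a-KO (blue points), placed from left to right by replicate number. Red bars are the mean and SD. *Kcnma1* was between 18.5 and 25.6 CPM in the libraries labelled Gadd45a-KO and between 27.9 and 46.3 CPM in the others, whereas the labels overlapped for the other 7 genes.

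*Kcnma1* (ENSMUSG00000063142) encodes the pore-forming alpha subunit of the BK channel and is located on chromosome 14 (NCBIM37, minus strand) between 24117983 and 24622526. Its level under the label Wildtype was 27.9, 35.9, 43.4, 33.7, 44.1 and 46.3 CPM in replicates 1 to 6 (1270 to 2361 reads). Under the label Gadd45a-KO it was 21.1, 18.5, 20.9, 25.6, 23.8 and 20.6 CPM (840 to 1246 reads). The labels did not overlap, and the libraries labelled Wildtype were the more spread, with an SD of 7.16 CPM (n = 6) against 2.56 CPM (n = 6). Replicate 1 labelled Wildtype, the lowest of its label at 27.9 CPM, was close to the highest library labelled Gadd45a-KO at 25.6 CPM. The change on the log2 scale was -0.83 (standard error, SE, 0.11), with an edgeR adjusted p of 0.000564. Permuting the labels in a two-sided exact test on log2 CPM gave p = 0.00216, the smallest possible for 6 libraries against 6. Of all genes tested, 3.12% likewise had every library labelled Gadd45a-KO below every library labelled Wildtype. By log2 fold change *Kcnma1* was number 100 from the lowest of the 16399 genes.

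The lower level of *Kcnma1* was found without the libraries that stood apart. When Gadd45a-KO replicates 2 and 3 were left out, which was chosen after seeing the data, the log2 fold change was -0.76 (SE 0.13, edgeR adjusted p = 0.00503). Leaving out each library in turn gave log2 fold changes from -0.89 to -0.76, and the gene passed 1% FDR in all 12 of these fits. Its longest annotated transcript has 4596 nt and its longest annotated 3′UTR 1260 nt. Of the genes with transcripts of 3476 to 4771 nt, 1.59% were lower at 1% FDR, as were 8.89% of those with transcripts of 4774 nt or longer. With an offset for transcript length, the log2 fold change of *Kcnma1* was -0.82 (edgeR adjusted p = 0.00057). The offset used annotated lengths, so that any sequence past the annotated end of a transcript was not taken into account. Reads that were assigned to no gene made up 12.6 to 13.9% of the libraries labelled Wildtype and 11.5 to 12.6% of those labelled Gadd45a-KO. Whether these reads lay in introns, on the other strand or outside genes was not examined. The part of this difference between the labels in the results was not tested.

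**Figure D2:**
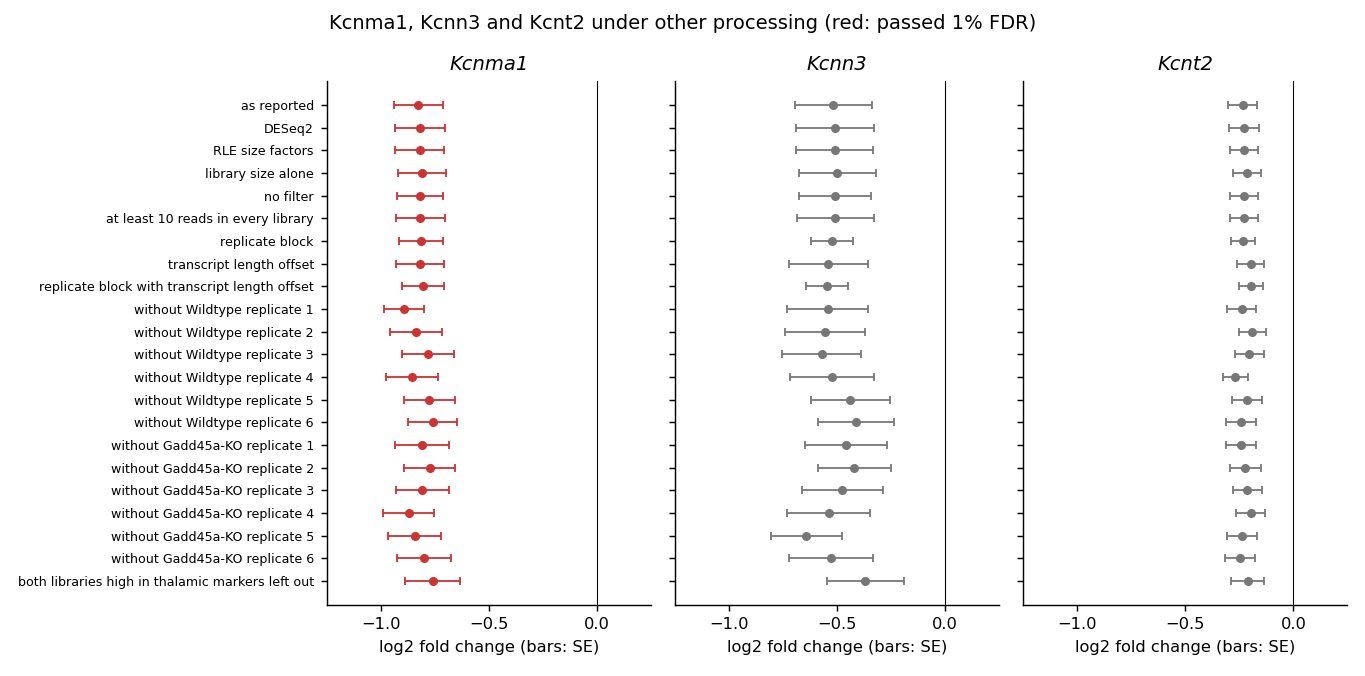
Log2 fold changes of *Kcnma1*, *Kcnn3* and *Kcnt2* (label Gadd45a-KO minus label Wildtype, bars are the standard error) as reported and under each alternative setting, with red points where the gene passed 1% FDR. All points of *Kcnma1* lie between -0.89 and -0.76 and are red, and no point of the other genes is.

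*Kcnmb4* and *Kcnmb2* encode auxiliary beta subunits of the BK channel, of which beta4 is the main neuronal form and slows the gating of the channel, and beta2 confers inactivation. *Kcnmb4* (ENSMUSG00000054934) lies on the minus strand of chromosome 10 from 115854917 to 115910934. In replicates 1 to 6 it had 41.1, 34.7, 35.3, 32.6, 29.9 and 31.0 CPM in the libraries labelled Wildtype and 32.7, 34.0, 35.3, 38.4, 35.2 and 36.4 CPM in those labelled Gadd45a-KO. All libraries labelled Gadd45a-KO lay within the range of the others. The log2 fold change was 0.05 (SE 0.07, edgeR adjusted p = 0.836), and 2 standard errors to either side reached from -0.08 to 0.19. A decrease as large as that of *Kcnma1* is outside this interval. Exons of *Kcnmb4* overlap those of non-coding genes on the other strand, among them *1700058G18Rik*, and the authors counted by strand.

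*Kcnmb2* (ENSMUSG00000037610), on the plus strand of chromosome 3 from 31801429 to 32099102, was the least abundant of the BK genes. It had 3.41, 3.52, 4.24, 3.59, 3.08 and 3.22 CPM in replicates 1 to 6 labelled Wildtype and 3.84, 4.35, 3.59, 3.83, 3.86 and 3.78 CPM in replicates 1 to 6 labelled Gadd45a-KO. All 6 libraries labelled Gadd45a-KO lay above the mean of the others, but only replicate 2 lay above all of them. Between the labels the log2 fold change was 0.14 (SE 0.08, edgeR adjusted p = 0.515), with 2 standard errors reaching from -0.02 to 0.31. At 155 to 231 reads per library, its counts were the lowest of the BK genes.

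The beta and alpha subunits were therefore compared within each library, where library scaling cancels. This was done for 5 ratios in all, as the difference of log2 CPM between the genes, with a threshold of 0.05 on the adjusted p. For *Kcnmb4* to *Kcnma1* the log2 ratio ranged from -0.58 to 0.56 with a median of -0.18 in the libraries labelled Wildtype, and from 0.56 to 0.88 with a median of 0.69 in those labelled Gadd45a-KO. Every library labelled Gadd45a-KO was above every other library, although the lowest, at 0.563, was next to Wildtype replicate 1 at 0.558. The mean log2 ratio differed by 0.87, or 1.82-fold (two-sided exact permutation test, p = 0.00216, and 0.00541 after Benjamini-Hochberg adjustment over the 5 ratios). For *Kcnmb2* to *Kcnma1* the log2 ratio ranged from -3.83 to -3.02 in the libraries labelled Wildtype and from -2.73 to -2.07 in those labelled Gadd45a-KO, again without overlap. Here the difference was 0.96, or 1.94-fold (exact permutation p = 0.00216, adjusted p = 0.00541). Thus both beta subunit transcripts were higher relative to that of the alpha subunit, while neither passed the test by itself. Both ratios are taken to *Kcnma1*, whose log2 fold change was -0.83, against 0.05 for *Kcnmb4* and 0.14 for *Kcnmb2*. They mostly restate the lower level of *Kcnma1* and are not a separate result for the beta subunits. With a block for replicate number, neither ratio passed (exact permutation p = 0.0312, and 0.0781 after adjustment). This p is the smallest that 64 exchanges allow. With the other ratios as they were, neither could have passed after adjustment, so the block cannot decide on them. All of these ratios are of reads and not of molecules, since the genes differ in length.

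**Figure D3:**
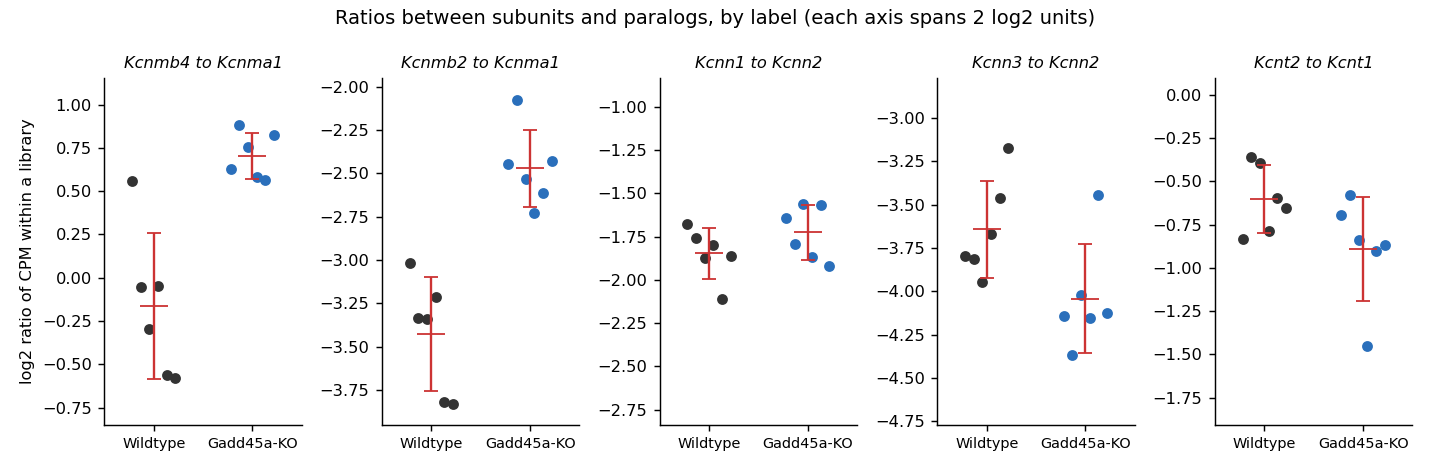
Log2 ratio of CPM within each library for 5 pairs of genes, in 6 libraries labelled Wildtype (dark points) and 6 labelled Gadd45a-KO (blue points), with the mean and SD in red. Each vertical axis spans 2 log2 units. The labels are apart for *Kcnmb4* to *Kcnma1* and *Kcnmb2* to *Kcnma1*, and overlap for the other 3 pairs.

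*Kcnn1*, *Kcnn2* and *Kcnn3* encode the SK1, SK2 and SK3 subunits. *Kcnn2* (ENSMUSG00000054477), which encodes the SK2 subunit known from spines of hippocampal pyramidal neurons, lies on the plus strand of chromosome 18 from 45428659 to 45845678. It had 50.3, 48.3, 50.7, 50.4, 56.8 and 49.7 CPM in replicates 1 to 6 labelled Wildtype and 42.6, 41.2, 41.9, 57.2, 46.2 and 54.4 CPM in replicates 1 to 6 labelled Gadd45a-KO. Of the latter, 4 lay below all libraries labelled Wildtype, and these included both libraries with high thalamic markers, while replicate 4 lay above all of them. The change on the log2 scale was -0.11 (SE 0.08, edgeR adjusted p = 0.617), and it was -0.03 (adjusted p = 1.00) without Gadd45a-KO replicates 2 and 3.

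*Kcnn3* (ENSMUSG00000000794), on the plus strand of chromosome 3 from 89324086 to 89471683, had the second-lowest log2 fold change of the 8 genes. Its values were 3.59, 3.41, 3.25, 3.93, 5.11 and 5.47 CPM in replicates 1 to 6 labelled Wildtype and 2.37, 1.96, 2.54, 3.17, 4.20 and 3.08 CPM in replicates 1 to 6 labelled Gadd45a-KO. Except for replicate 5, the libraries labelled Gadd45a-KO lay below all others. The log2 fold change of -0.52 had a standard error of 0.18 and did not pass (edgeR adjusted p = 0.162). Without Gadd45a-KO replicates 2 and 3 it was -0.37 (edgeR adjusted p = 0.584). From 89 to 274 reads per library fell on this gene, and its spread was the widest of the 8, with an SD of 22.8% of the mean in the libraries labelled Wildtype and 27.2% in those labelled Gadd45a-KO.

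*Kcnn1* (ENSMUSG00000002908), on the minus strand of chromosome 8 from 73365948 to 73380907, had a mean of 14.2 CPM under either label (SD 0.903 CPM and 1.4 CPM, n = 6 each). Single libraries ranged from 13.1 to 15.7 CPM and from 11.8 to 15.6 CPM, with Gadd45a-KO replicate 2 the lowest. For *Kcnn1* the log2 fold change was 0.00 (SE 0.07, edgeR adjusted p = 0.994), and 2 standard errors reached from -0.13 to 0.14. A change of the size of that of *Kcnma1* is outside this interval. The log2 ratio of *Kcnn1* to *Kcnn2* differed by 0.12 between the labels (exact permutation p = 0.214, adjusted p = 0.214 over the 5 ratios). For *Kcnn3* to *Kcnn2* it differed by -0.40 (exact permutation p = 0.0498), which did not pass after adjustment (p = 0.0785).

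*Kcnt1* (ENSMUSG00000058740), on the plus strand of chromosome 2 from 25719315 to 25773793, encodes Slack. It had 61.0, 52.3, 51.2, 53.4, 57.0 and 53.9 CPM in replicates 1 to 6 labelled Wildtype and 52.3, 45.3, 52.2, 75.5, 60.2 and 60.0 CPM in replicates 1 to 6 labelled Gadd45a-KO. The libraries labelled Gadd45a-KO were the more spread and held both the lowest and the highest value. The log2 fold change was 0.07 (SE 0.10, edgeR adjusted p = 0.843), with 2 standard errors reaching from -0.12 to 0.26. It was -0.01 without Gadd45a-KO replicate 4, the library at 75.5 CPM, and 0.18 (adjusted p = 0.553) without Gadd45a-KO replicates 2 and 3.

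*Kcnt2* (ENSMUSG00000052726), on the plus strand of chromosome 1 from 142142793 to 142508640, encodes Slick. It had 34.2, 40.8, 39.0, 30.9, 37.6 and 34.2 CPM in replicates 1 to 6 labelled Wildtype and 32.3, 30.3, 29.1, 27.5, 32.1 and 32.8 CPM in replicates 1 to 6 labelled Gadd45a-KO. Apart from Wildtype replicate 4, all libraries labelled Wildtype were above all others. Between the labels the log2 fold change was -0.24 (SE 0.07, edgeR adjusted p = 0.0594), and permuting the labels in a two-sided exact test gave p = 0.013, which is not adjusted for the number of genes. Over all alternatives run, its adjusted p lay between 0.0169, in edgeR without Wildtype replicate 4, and 0.251, in edgeR without Gadd45a-KO replicates 2 and 3. The log2 ratio of *Kcnt2* to *Kcnt1* differed by -0.29 (exact permutation p = 0.0628, adjusted p = 0.0785 over the 5 ratios). Slack and Slick can assemble into mixed channels, which counts per gene do not show.

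Levels of different genes were compared per length, as CPM divided by the annotated exon length in kb (RPKM). In the libraries labelled Wildtype the order was *Kcnn2*, *Kcnmb4*, *Kcnma1*, *Kcnt1*, *Kcnt2*, *Kcnn1*, *Kcnn3* and *Kcnmb2*, from 13.5 ± 0.773 RPKM (SD, n = 6) for *Kcnn2* to 1.13 ± 0.13 RPKM (SD, n = 6) for *Kcnmb2*. *Kcnma1* was the third with 8.11 ± 1.51 RPKM (SD, n = 6), within the spread of its neighbours, since its order against *Kcnmb4* and against *Kcnt1* was kept in 4 of 6 libraries each. The order of *Kcnn3* and *Kcnmb2* was likewise kept in 4 of 6 libraries. In the libraries labelled Gadd45a-KO *Kcnma1* was the fifth with 4.57 ± 0.538 RPKM (SD, n = 6), below *Kcnt1* and, in 5 of 6 libraries, below *Kcnt2*. *Kcnn3* was last there, at 0.937 ± 0.255 RPKM (SD, n = 6), and lay below *Kcnmb2* in 5 of 6 libraries. Neighbours whose order held in all 6 libraries of both labels were *Kcnn2* above *Kcnmb4*, and *Kcnt1* above *Kcnt2*. The length used is the same in every library, so agreement between libraries does not test it. For *Kcnmb4* the annotated exons together have 3324 nt, but its longest transcript has 1626 nt. For *Kcnn2* these lengths are 3790 and 3682 nt, and the order of the 2 genes depends on which length is used.

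**Figure D4:**
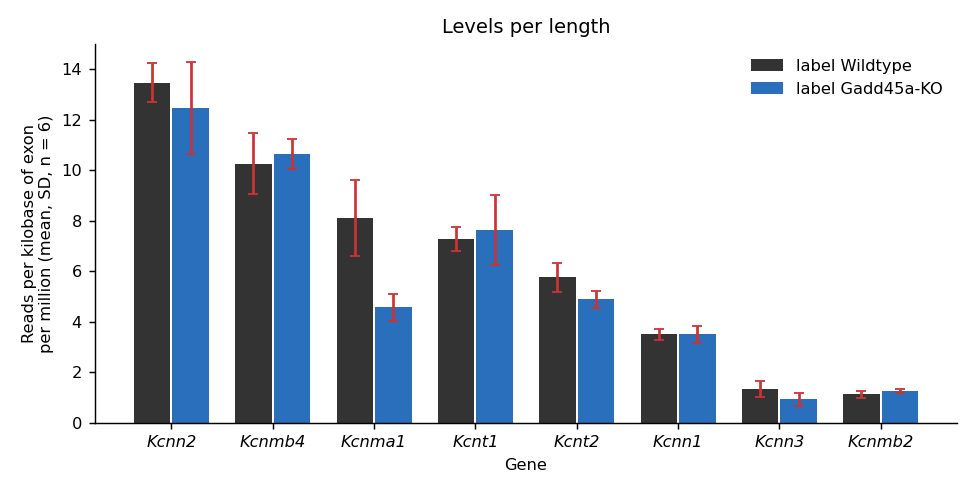
Mean RPKM (linear axis from 0, bars show the SD, n = 6) of the 8 channel genes in the libraries labelled Wildtype (dark) and Gadd45a-KO (blue), ordered by the level in the former. *Kcnma1* was 8.11 RPKM in the libraries labelled Wildtype and 4.57 RPKM in those labelled Gadd45a-KO.

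Partners of these channels were examined by function, in lists chosen with earlier results of these data known. Of 8 further genes of the same families, 4 passed the filter on low counts and none changed at 1% FDR. The BK gamma subunit gene *Lrrc55* had 12.5 ± 1.76 CPM under the label Wildtype and 14.4 ± 3.40 CPM under the label Gadd45a-KO (SD, n = 6 each, log2 fold change 0.20, edgeR adjusted p = 0.615). *Kcnmb1*, the beta subunit of smooth muscle, had a log2 fold change of 0.18 (adjusted p = 0.836) at a mean of 0.96 CPM in the libraries labelled Wildtype, and *Kcnu1*, a relative of *Kcnma1* best known from sperm, of -0.05 (adjusted p = 0.879). The other 4 genes, among them *Kcnmb3* and *Kcnn4*, had mean levels of at most 0.189 CPM under either label.

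Calmodulin, casein kinase 2 and protein phosphatase 2A form a complex with SK channels and set their sensitivity to calcium. All 10 genes listed for them were tested and none changed, and their log2 fold changes lay between -0.07 and 0.04. The lowest p-values in this list belonged to *Ppp2r1b*, *Csnk2a2* and *Ppp2cb*, with adjusted p of 0.613, 0.706 and 0.719 from edgeR. The median log2 fold change of the list was -0.01 against 0.00 for all genes.

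Among the channels that supply the activating ions, 1 of 9 voltage-gated calcium channel alpha subunits was lower at 1% FDR. So were 2 of 6 calcium release channels and 2 of 6 sodium channel alpha subunits, and none was higher. Of all genes 2.62% were lower and 0.0244% higher. Of the genes with transcripts of 4774 nt or longer, 8.89% were lower. The calcium channel gene *Cacna1e*, which encodes the R-type channel, fell from 448 ± 58.1 to 291 ± 40.6 CPM (SD, n = 6 each), a log2 fold change of -0.62 (SE 0.10, edgeR adjusted p = 0.00138). *Cacna1d* and *Cacna1i* had log2 fold changes of -0.12 and -0.14 (adjusted p = 0.292 and 0.526). For calcium release from the endoplasmic reticulum, the ryanodine receptor genes *Ryr2* (log2 fold change -0.37, adjusted p = 0.000692) and *Ryr3* (-0.52, adjusted p = 0.00161) fell, whereas the inositol trisphosphate receptor gene *Itpr1*, at -0.30 (adjusted p = 0.268), did not pass. With an offset for transcript length neither *Ryr2* nor *Ryr3* passed, whereas *Cacna1e* did (log2 fold change -0.47, edgeR adjusted p = 0.00421). With the replicate block and length offset together, *Ryr2* (-0.18, edgeR adjusted p = 0.00948) and *Ryr3* (-0.34, edgeR adjusted p = 0.00655) passed. Of the sodium channels, *Scn2a1* (log2 fold change -0.38, adjusted p = 0.00552) and *Scn3a* (-0.42, adjusted p = 0.00597) fell, and *Scn1a* (-0.26, adjusted p = 0.04) did not pass 1% FDR. Both sodium channel calls were unstable. Of 23 settings, the reported one included, *Scn2a1* passed in 13 (log2 fold changes from -0.40 to -0.28, adjusted p up to 0.0394 in edgeR) and *Scn3a* in 10 (-0.46 to -0.31, adjusted p up to 0.0381). Both were lost with the length offset, without Gadd45a-KO replicates 2 and 3, and when any one of Wildtype replicates 2, 3, 5 and 6 or Gadd45a-KO replicates 1, 2 and 3 was left out. *Scn2a1* was lost also without Gadd45a-KO replicate 6, and *Scn3a* also without Wildtype replicate 1 or Gadd45a-KO replicate 4, with scaling to library size alone and with the replicate block and length offset together. *Ryr3* did not pass without Gadd45a-KO replicates 2 and 3 (adjusted p = 0.0102 from edgeR).

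**Figure D5:**
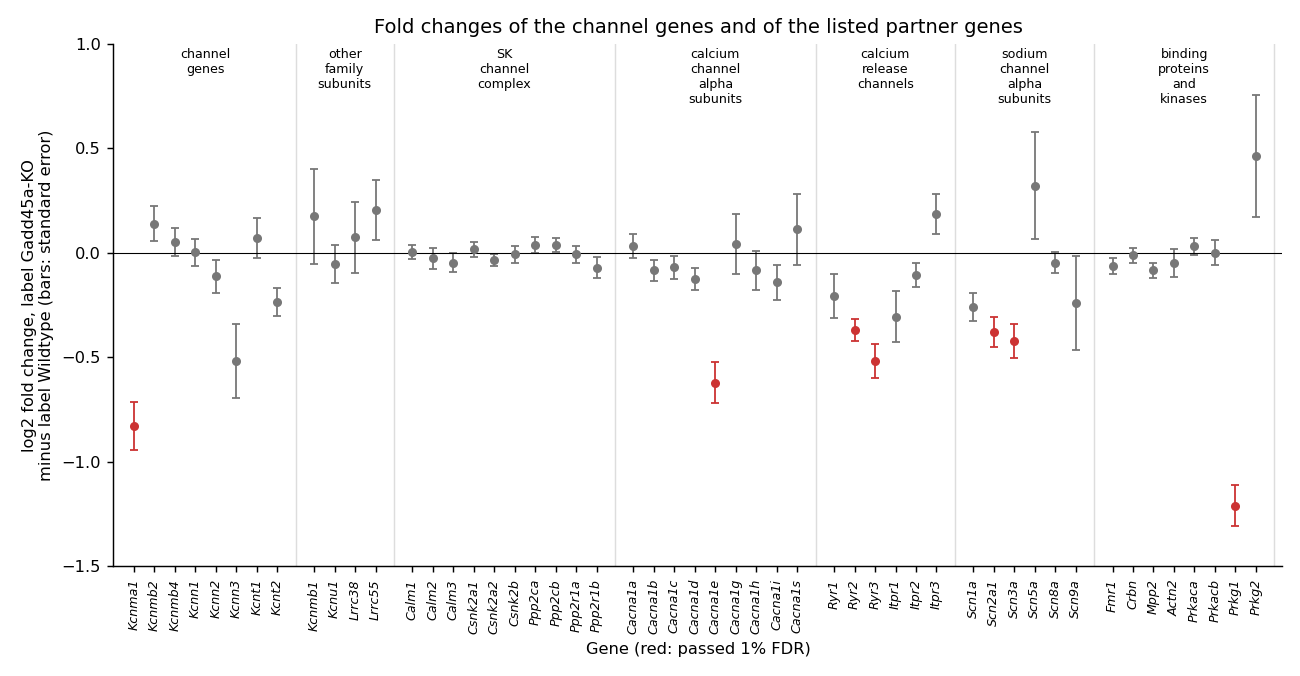
Log2 fold changes (label Gadd45a-KO minus label Wildtype) with standard errors for the 8 channel genes and the tested genes of 6 partner lists, with red points for genes that passed 1% FDR. *Kcnma1* at -0.83 and *Prkg1* at -1.21 have the lowest values, and the 10 genes of the SK channel complex lie near 0.

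Of 8 genes for proteins that bind or phosphorylate BK or SK channels, 1 fell at 1% FDR, where 2.62% of all genes did. *Prkg1*, a cyclic GMP-dependent protein kinase known to act on BK channels, fell from 4.78 ± 0.273 CPM under the label Wildtype to 2.07 ± 0.323 CPM under the label Gadd45a-KO (SD, n = 6 each). This was a log2 fold change of -1.21 (SE 0.10, edgeR adjusted p = 3.90e-06), and the labels did not overlap. *Mpp2*, a scaffold that binds SK2, had a log2 fold change of -0.08 (adjusted p = 0.292), and *Fmr1*, whose protein FMRP binds BK beta4 and Slack, of -0.06 (adjusted p = 0.546). *Prkg2*, the related kinase, had 2.09 ± 0.274 and 2.89 ± 1.73 CPM (SD, n = 6 each) and a log2 fold change of 0.46 (adjusted p = 0.552).

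The genes whose libraries deviated from their label means most like those of each channel gene were sought among 13849 genes of at least 1 CPM, by Pearson's r over the 12 libraries. For *Kcnma1* they were *Fam126a* (r = 0.943), *Heca* (r = 0.942) and *Mettl4* (r = 0.929). Of these, *Mettl4* also fell between the labels, with a log2 fold change of -0.77 (edgeR adjusted p = 3.34e-05). For *Kcnn2* they were *Nov* (r = 0.935), *Clcn2* (r = 0.923) and *Efna3* (r = 0.922), and for *Kcnt1* *Fezf2* (r = 0.939), *Cdh22* (r = 0.928) and *Tmem200a* (r = 0.923). *Kcnn1* was closest to *1110008J03Rik* (r = 0.930), *Kcnn3* to *Ppara* (r = 0.924), *Kcnt2* to *Ankrd13c* (r = 0.918), *Kcnmb4* to *Thop1* (r = 0.941) and *Kcnmb2* to *Thoc6* (r = 0.823). No channel gene was among the 3 nearest of another. Between channel genes, r ranged from -0.611 for *Kcnmb2* and *Kcnn3* to 0.825 for *Kcnn2* and *Kcnt1*. These values describe 12 libraries that share their depth and dissection between genes, and as the highest of many they carry no test.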

How the data were processed

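Per the study's methods and the submitters' processing notes, the authors prepared TruSeq stranded poly(A) libraries, aligned reads with TopHat 1.4.1 to NCBIM37/mm9 with up to 5 alignments per read, counted them by strand with HTSeq 0.5.4p3 against Ensembl release 66, and deposited raw counts per gene for each library without normalization. Genes were named from GENCODE M1 (Ensembl 65) of the same build, which held 37205 of the 37991 gene IDs. Rows for reads assigned to no gene (11.5 to 13.9% of all) were left out. So were those for ambiguous reads (0.552 to 0.61%) and for alignments that were not unique (11.5 to 12.9%).

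Counts were filtered with filterByExpr, scaled with TMM and compared without covariates in edgeR 4.0.16 (R 4.3.3) at the study's 1% FDR. Standard errors were obtained by dividing each log2 fold change by the root of its F statistic, and log2 CPM used a prior count of 2. CPM used the same scaling. DESeq2 1.42.0, other scaling, filters and FDR, a replicate block, length offsets (splines with 5 degrees of freedom) and leaving out libraries were alternatives. A single read equals 0.018 CPM at the highest depth. Libraries came from separate mice. Exact permutation tests were run in Python 3.11.15. Tested on simulated data in which 200 genes differed by a log2 change of 1, edgeR recovered 196 and called 2 others among 16288 genes. Smaller changes and differences in dissection between libraries were not simulated, so this result does not cover them. The genes named are the 8 members, genes of each list at 1% FDR or, up to 3, with the lowest p, and the genes most like each member, plus a few named after their values were seen (*Prkg2*, *Kcnmb3*, *Kcnn4*). The members and lists were chosen with earlier results of these data known. Filter sequences of the other pore-forming genes are not reported here.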

Additional observations from a re-analysis of the deposited data

Results flagged for a closer look

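A single library lay far from the other 5 of its label in 2 of the 16 groups examined (8 genes under 2 labels), where chance gives about 1 in 20 groups, or 0.8 here. *Kcnn2* had 56.8 CPM in Wildtype replicate 5, far above the remaining 5 at 48.3 to 50.7 CPM (the gap was 0.724 of the range). *Kcnmb2* had 4.35 CPM in Gadd45a-KO replicate 2, above the remaining 5 at 3.59 to 3.86 CPM (the gap was 0.647 of the range). That replicate is also one of both libraries with high thalamic markers, and the part of those in the value was not tested.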

How the results depend on the processing

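Across the 10 alternatives that did not leave out a single library, *Kcnma1* was the only one of the 8 genes to pass its FDR threshold, with log2 fold changes from -0.83 to -0.76 (adjusted p from 3.55e-10 to 0.00503), and it was also the only one in each of the 12 fits without 1 library. The number of lower genes, 430 as reported, was 726 at 5% FDR, 661 with DESeq2, 280 with the transcript length offset and 199 without Gadd45a-KO replicates 2 and 3, and between 239 (without Wildtype replicate 5) and 467 when 1 library was left out. It was lower by over 1.5 times also without Wildtype replicate 3 (268) or 6 (261) and without Gadd45a-KO replicate 1 (248), 2 (276) or 6 (248). The number of higher genes, 4 as reported, was 20 at 5% FDR, 19 with DESeq2, 8 with the replicate block and length offset together, and 3 to 4 when 1 library was left out. *Kcnn1* turned sign within its error, to -0.0044 with the length offset and -0.0067 with the block and the offset, and ranged from -0.019 to 0.058 when 1 library was left out. Under the same omission *Kcnt1* ranged from -0.014 to 0.14, the lowest without Gadd45a-KO replicate 4. Under the replicate block both ratios to *Kcnma1* missed the adjusted threshold at unchanged differences of 0.87 for *Kcnmb4* and 0.96 for *Kcnmb2*. Both had an exact permutation p of 0.0312, the smallest that 64 exchanges allow, and 0.0781 after adjustment. With the other ratios as they were, neither could have passed, so the block cannot decide on them. Without 1 library the 2 ratios to *Kcnma1* ranged from 0.78 to 1.01 and from 0.88 to 1.04 and passed in all 12 cases. The ratio of *Kcnn3* to *Kcnn2* ranged from -0.52 to -0.31 and passed in 1 case, without Gadd45a-KO replicate 5, and that of *Kcnt2* to *Kcnt1* ranged from -0.35 to -0.17 and passed in 1 case, without Gadd45a-KO replicate 2. The causes were not tested. The labels do not say whether libraries of equal replicate number share anything else. The deviations of equal numbers correlated above 0.1 in 5 of 6 pairs (mean r 0.14 against -0.0279 for unequal numbers), and 1 of 6 libraries was closest to its own number. With the replicate block 509 genes were lower and 5 higher, and *Kcnn3* had an adjusted p of 0.0111 from edgeR. Counting error is largest for *Kcnn3* and *Kcnmb2*, which had the fewest reads.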
